A study of Rattus norvegicus with 84 samples.

Results

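The miRNA cargo of plasma-derived extracellular vesicles (EVs) was compared between the hNSCs group and the control group at 10 days poststroke. The libraries were chosen by their labels, and no measured value was used in the choice. They were 6 of the 21 plasma miRNA libraries and 6 of the 84 libraries of the series, 3 rats in each group. All 6 were wild-type male Sprague-Dawley rats aged 8 to 12 weeks that had undergone 90 min of transient middle cerebral artery occlusion. On day 3 the hNSCs group received 200000 human neural stem cells (hNSCs) through the common carotid artery, and the control group received saline only. Plasma was thus examined 7 days after transplantation. Of 5489 rows in the table, 699 were known rat miRNAs and the others were predicted ones. Of the known miRNAs, 531 had at least 1 unique molecular identifier (UMI) in the 6 libraries and 168 were at 0, and 309 passed the filter on low counts and were tested.

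MicroRNAs are short RNAs that pair with messenger RNAs, mainly through the seed near their 5′ end, and lower the output of those messengers. Cells release some of them into the circulation inside EVs, so that plasma carries miRNAs of blood cells, liver, muscle, vessel wall and other tissues together. The myomiRs (miR-1, miR-133 and miR-206) are transcribed in skeletal muscle, and miR-1 and miR-133a also in heart, whereas miR-206 is the one mostly limited to skeletal muscle.

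The 3 miRNAs that passed the test are shown first, because they have the same seed, followed by the 2 miRNAs next in the order of p-values that share another. Capitals mark the seed, bases 2 to 8 counted from the 5′ end, in the deposited sequences.
miR-206-3p: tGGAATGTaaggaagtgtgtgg
miR-1-3p: tGGAATGTaaagaagtgtgtat
miR-1b: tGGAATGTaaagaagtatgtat
miR-133b-3p: tTTGGTCCccttcaaccagcta
miR-133a-3p: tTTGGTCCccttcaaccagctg
Positions counted from the 5′ end, miR-1b differed from miR-1-3p by G17A, miR-206-3p differed from miR-1-3p by A11G, A21G and T22G, and miR-133b-3p differed from miR-133a-3p by G22A. No other tested miRNA had the seed GGAATGT or the seed TTGGTCC. In each of the 21 plasma libraries the UMIs of miR-1b were 0.970 to 0.995 times those of miR-1-3p, so the counts of these near-identical sequences may come from the same reads, and they are counted below as 2 rows with 1 pattern. In the RefSeq annotation (GRCr8), Mir206 lay within 10 kb of Mir133b, and Mir1 within 10 kb of Mir133a1.

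The control libraries held 1183204, 614526 and 771164 UMIs, and the hNSCs libraries held 1365784, 1266793 and 1899541. Each hNSCs library was thus deeper than each control library, and it also had more known miRNAs with a UMI, 412 to 489 against 366 to 389. Known miRNAs took 91.2% to 98.6% of the UMIs. Pearson's correlation of log2 CPM plus 1 across the tested miRNAs, which are not independent, was 0.935 to 0.966 within the control group, 0.913 to 0.964 within the hNSCs group and 0.901 to 0.977 between groups. The 5 most abundant miRNAs, miR-16-5p, let-7a-5p, let-7f-5p, let-7c-5p and miR-122-5p, took 41.7% to 50.4% of the known UMIs of a library.

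At 10 days poststroke, the myomiRs miR-206-3p, miR-1-3p and miR-1b were called higher in plasma-derived EVs of the hNSCs group, by 12.6-fold, 7.24-fold and 7.17-fold. No miRNA was called lower. The 3 calls lay close to the threshold, at an adjusted p of 0.0471 (edgeR). With near-identical miRNAs counted once, 0 were called. In all, 3 of 309 tested miRNAs (0.971%) were higher and 0 were lower at an adjusted p under 0.05 with a change over 1.5-fold, by edgeR's quasi-likelihood test with Benjamini-Hochberg adjustment. At an unadjusted p under 0.05 and the same fold limit, which holds for each such count below, 35 were higher (11.3%) and 4 were lower (1.29%). No miRNA was called lower by DESeq2 or limma either. The hNSCs and control rats did not overlap for 24 miRNAs that were higher (7.77%) and 10 that were lower (3.24%). Of the 309, 193 (62.5%) had a log2 fold change above 0, with a median of 0.24, so the values of each group of miRNAs below are read beside that median, which was 0.06 when DESeq2's size factors set the scale.

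Levels are given as counts per 1000000 UMIs of the tested miRNAs after scaling by the trimmed mean of M-values (CPM), in the order of rats 1, 2 and 3. For miR-206-3p, which acts in skeletal muscle differentiation and regeneration, the control rats were at 161, 272 and 97.7 CPM, and the hNSCs rats were at 235, 3117 and 3343 CPM. Rats 2 and 3 of the hNSCs group lay above every control rat, but rat 1 lay below control rat 2, so the groups overlapped. The log2 fold change was 3.66 (SE 0.86, n = 3 against 3, adjusted p = 0.0471, edgeR).

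For miR-1-3p, the most abundant myomiR in these libraries, the control rats were at 621, 2258 and 856 CPM, and the hNSCs rats were at 2072, 14019 and 10951 CPM. Again hNSCs rat 1 lay below control rat 2, while hNSCs rats 2 and 3 were the highest of the 6. The log2 fold change was 2.86 (SE 0.68, adjusted p = 0.0471, edgeR). Its near-identical row miR-1b gave 610, 2247 and 849 CPM against 2060, 13805 and 10688 CPM, with a log2 fold change of 2.84 (SE 0.67, adjusted p = 0.0471, edgeR).

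The miR-133 pair did not pass the test. The control rats were at 142, 382 and 148 CPM of miR-133a-3p, and the hNSCs rats were at 249, 1505 and 2933 CPM (log2 fold change 2.80, SE 0.79, adjusted p = 0.116, edgeR). For miR-133b-3p the control rats were at 69.8, 134 and 55.8 CPM, and the hNSCs rats were at 96.0, 696 and 740 CPM (log2 fold change 2.56, SE 0.66, adjusted p = 0.0782, edgeR). In both, hNSCs rat 1 lay among the control rats and hNSCs rats 2 and 3 above them.

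**Figure D1:**
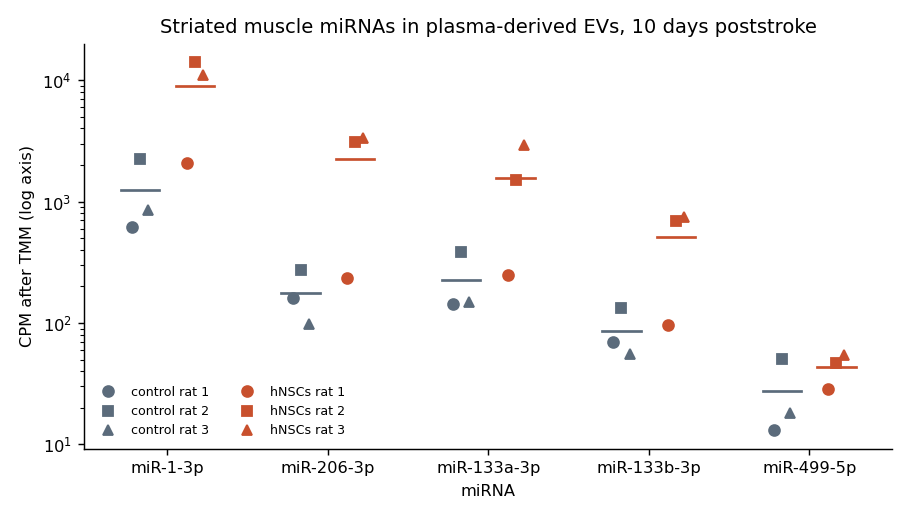
Level of 5 striated muscle miRNAs in each of the 6 plasma-derived EV libraries at day 10, in CPM on a log axis, with 1 point per rat and a line at the mean of each group of 3. For each of the 4 myomiRs, hNSCs rats 2 and 3 are the highest points and hNSCs rat 1 lies below control rat 2, whereas for miR-499-5p the control rat 2 is among the hNSCs rats.

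The plot of myomiR levels by rat shows that the difference rested on hNSCs rats 2 and 3. Which miRNAs passed the threshold depended on single libraries. Without hNSCs rat 1, 5 miRNAs passed, and they were the 5 shown above, with adjusted p from 0.00473 to 0.0196 (edgeR). Without control rat 2, miR-1-3p and miR-1b passed, 2 in all, and without any 1 of the other 4 rats 0 passed. The log2 fold change of miR-206-3p stayed between 2.94 and 4.05 over 21 alternative settings, with adjusted p from 0.00117 to 0.952 (edgeR, DESeq2 or limma), and it passed in 3 of them. Depth moved with the groups, as given above. With each library thinned to 410006 UMIs, an alternative chosen after seeing the data, the log2 fold change of miR-206-3p was 3.34 (adjusted p = 0.0804, edgeR).

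**Figure D2:**
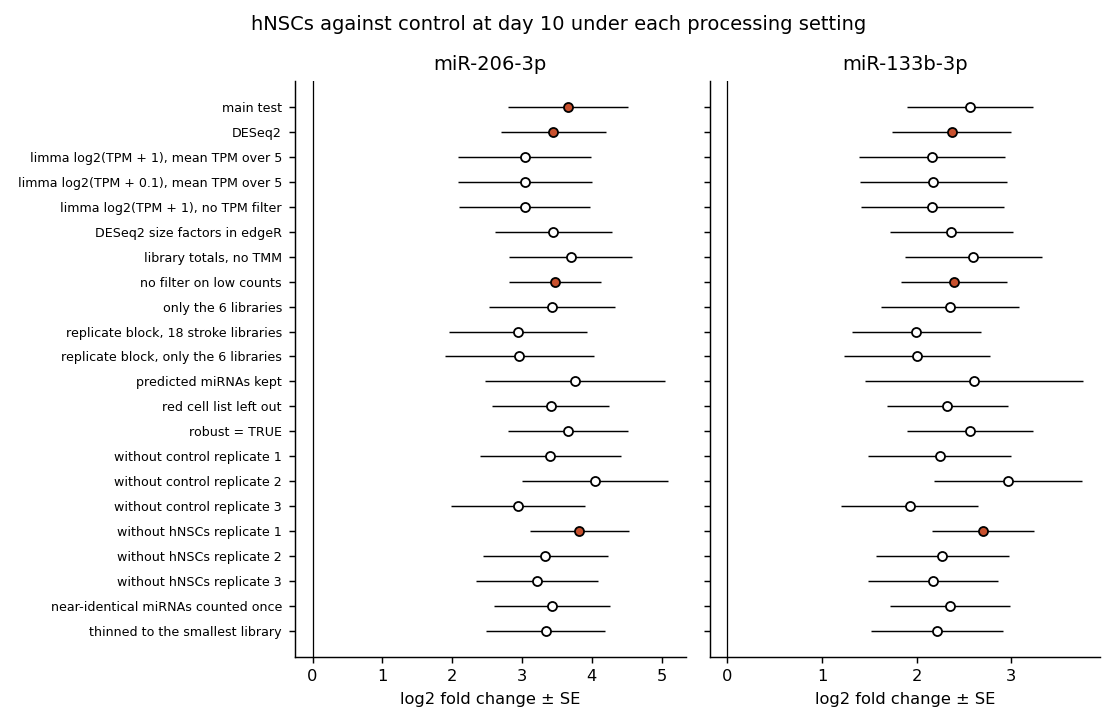
Log2 fold change of the hNSCs group against the control group at day 10 for miR-206-3p and miR-133b-3p under the main test and 21 alternatives, with bars of 1 SE and filled points where the adjusted p was under 0.05. All values of miR-206-3p lie between 2.94 and 4.05, while the side of the threshold changes with the setting.

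The remaining members of the striated muscle list carried smaller values. The list holds miRNAs of skeletal and heart muscle, and 8 of its 9 members were tested, of which 3 were called and 5 were higher at an unadjusted p under 0.05, against 11.3% of all tested. Its median log2 fold change was 2.68. miR-499-5p, encoded in a slow myosin gene, was at 13.0, 50.7 and 18.1 CPM in the control group and 28.6, 47.1 and 54.4 CPM in the hNSCs group, with a log2 fold change of 0.69 (SE 0.52). miR-208a-3p, encoded in a cardiac myosin gene, had a log2 fold change of -0.53, and neither passed the test. Together the list took 0.156%, 0.638% and 0.195% of the known UMIs in the control rats and 0.453%, 3.36% and 3.41% in the hNSCs rats. In a bulk library of EVs, more vesicles of a given source and more of its miRNA per vesicle cannot be told apart.

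Messenger RNAs of striated muscle were read in the plasma mRNA libraries of the same rats, with 17 genes chosen after the miRNA result was seen. Their summed level was 343, 612 and 301 CPM of annotated counts in the control rats and 428, 443 and 613 CPM in the hNSCs rats, so the groups overlapped. Acta1, the skeletal muscle actin, was at 15.4, 13.2 and 36.7 CPM against 4.58, 9.35 and 14.0 CPM. Ckm, the muscle creatine kinase, was at 2.85, 24.5 and 9.81 CPM against 19.6, 21.4 and 27.1 CPM. Of the 17 genes, 9, 10 and 11 were at 0 in the control rats and 9, 8 and 2 in the hNSCs rats. The fast myosin heavy chain genes Myh1, Myh2 and Myh4 had 29, 25 and 22 counts in hNSCs rat 3 and were at 0 in the other 5 libraries. Mylpf of the same list was highest in control rat 1, at 15.9, 0 and 0 CPM against 1.62, 0 and 3.48 CPM. Myh7, the slow myosin heavy chain that heart also uses, was present in all 6.

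Other miRNAs with the smallest p-values on the higher side did not pass the test. miR-221-3p, a vascular and haematopoietic miRNA, was at 104, 191 and 191 CPM in the control rats and 241, 311 and 496 CPM in the hNSCs rats. Every hNSCs rat lay above every control rat, with a log2 fold change of 1.11 (SE 0.36, adjusted p = 0.179, edgeR). miR-6216 was at 9.31, 8.45 and 0 CPM against 22.7, 43.8 and 17.1 CPM, again without overlap, with a log2 fold change of 2.16 (adjusted p = 0.179, edgeR).

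Of the other members of this set, 3 rested on very few UMIs. miR-137-3p, a neuronal miRNA, had 1 UMI in the 3 control libraries and 24 in the 3 hNSCs libraries, a ratio of 13.0 per known UMI with a 95% counting interval of 2.13 to 537. miR-129-5p, another miRNA of neurons, also had 1 against 24 UMIs. Of its 24 UMIs, 17 came from hNSCs rat 3. miR-434-5p had 2 against 51 UMIs, a ratio of 13.9 with an interval of 3.65 to 118. All 3 had higher CPM in every hNSCs rat than in every control rat, with adjusted p from 0.116 to 0.179 (edgeR). These intervals cover counting error only and not the spread between rats.

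Among the 35 miRNAs that were higher at an unadjusted p under 0.05, the groups did not overlap for 14. Over all 309 tested, 24 (7.77%) were higher without overlap. The 35 were picked by their p-values from the same rats. hNSCs rat 1 was the lowest of its group for 30 of them, and hNSCs rat 3 was the highest for 26. Over all 309 tested miRNAs, hNSCs rat 1 was the lowest of its group for 130 and hNSCs rat 3 was the highest for 119. In the control group, rat 1 was the lowest for 21 of the 35 and rat 2 the highest for 22, against 145 and 132 of all 309.

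On the lower side no miRNA passed, and the smallest adjusted p was 0.302 (edgeR). The brain-enriched miR-488-3p was at 53.1, 22.5 and 72.6 CPM in the control rats and 15.2, 2.52 and 22.5 CPM in the hNSCs rats, where hNSCs rat 3 lay just under control rat 2. Its log2 fold change was -1.85 (SE 0.72). miR-383-5p, another brain miRNA, was at 169, 33.8 and 55.8 CPM against 24.4, 10.9 and 49.0 CPM, and its groups overlapped. miR-328a-3p and miR-330-5p were the other members lower at an unadjusted p under 0.05, with log2 fold changes of -1.16 and -1.45.

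Some myeloid miRNAs stood among the next in order. miR-223-3p, which is abundant in neutrophils and platelets, was at 12469, 6051 and 12091 CPM in the control rats and 5489, 5973 and 5663 CPM in the hNSCs rats. The groups did not overlap, although hNSCs rat 2 and control rat 2 were close, and the log2 fold change was -0.84 (SE 0.43, adjusted p = 0.412, edgeR). The opposite arm miR-223-5p gave -1.33 and was also without overlap. The leukocyte miRNA miR-142-3p was at 70687, 27536 and 53775 CPM against 40110, 24807 and 17262 CPM, with a log2 fold change of -0.89. Of the 10 leukocyte list members 6 lay below 0 and 4 above, and the inflammatory miR-146a-5p, at 1610, 3075 and 3049 CPM against 3189, 4012 and 3440 CPM, was higher in every hNSCs rat than in every control rat without passing the test. The last 3 of the set, miR-652-3p, miR-128-3p and miR-3559-5p, had log2 fold changes of -1.38, -1.31 and -0.65.

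**Figure D3:**
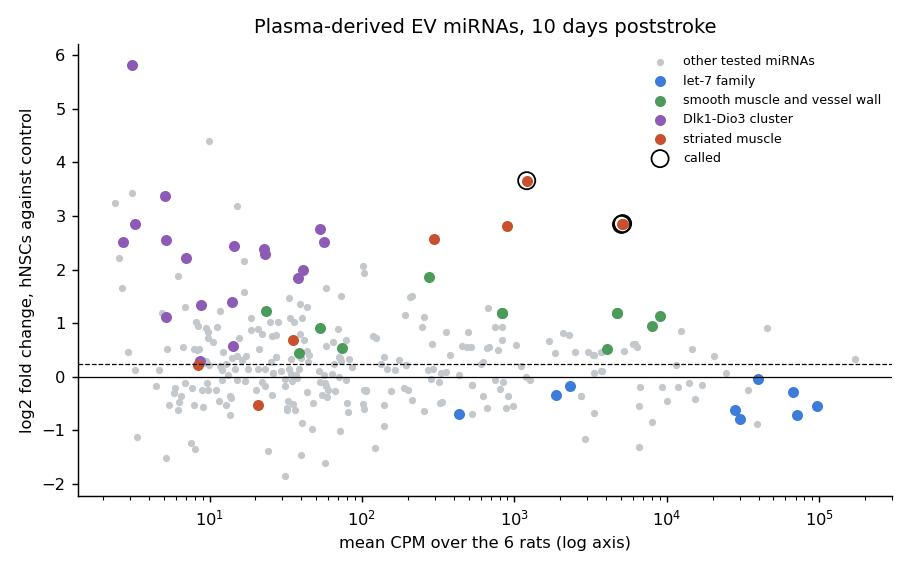
Log2 fold change of the hNSCs group against the control group for the 309 tested miRNAs, against their mean CPM over the 6 rats on a log axis, with 4 lists in colour, called miRNAs ringed and a dashed line at the median of 0.24. miR-206-3p and the overlapping points of miR-1-3p and miR-1b are ringed, the Dlk1-Dio3 members lie at low levels, and the 9 let-7 members lie below 0 (all but 1 without TMM, with predicted miRNAs kept or without hNSCs rat 2).

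Of the smooth muscle and vessel wall miRNAs none was called. All 12 members were tested and all 12 had a log2 fold change above 0, with a median of 1.17. Of them 6 were higher at an unadjusted p under 0.05, beside 11.3% of all tested, and these include the near-identical pairs below. With near-identical miRNAs counted once, all 10 members tested were above 0, with a median of 0.87 beside 0.05 for all tested. miR-143-3p, which with miR-145 holds vascular smooth muscle cells in their contractile state, was at 2833, 8923 and 5043 CPM in the control rats and 7800, 17842 and 11382 CPM in the hNSCs rats (log2 fold change 1.14, SE 0.48, adjusted p = 0.311, edgeR). miR-145-5p was at 40.0, 228 and 86.6 CPM against 142, 468 and 679 CPM (log2 fold change 1.87, SE 0.61, adjusted p = 0.179, edgeR). In both, control rat 2 lay above hNSCs rat 1.

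miR-10a-5p, which is encoded among the HOX genes, was at 1370, 3970 and 3298 CPM in the control rats and 4309, 5605 and 9831 CPM in the hNSCs rats. Its groups did not overlap, and the log2 fold change was 1.19 (SE 0.44, adjusted p = 0.267, edgeR). miR-10b-5p differs from it by too little for the counts to be independent, and the same holds for miR-100-5p and miR-99a-5p. miR-100-5p was at 313, 746 and 454 CPM against 624, 681 and 2143 CPM, with overlap. The share of known UMIs in this list was 1.04%, 3.83% and 1.98% in the control group and 2.65%, 4.30% and 7.22% in the hNSCs group. Without control rat 1 the median of the list was 0.60, beside -0.03 for all tested. Over the settings run the list median stayed above 0. Of the 12 members, 11 were above 0 without control rat 1, without control rat 3 and with predicted miRNAs kept.

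The miRNAs of the imprinted Dlk1-Dio3 cluster, which are known from embryo, placenta and brain, had the second-highest median. Of 77 members, 23 were at 0 in all 6 libraries, and 18 were tested. All 18 had a log2 fold change above 0, with a median of 2.33. Of them 7 were higher at an unadjusted p under 0.05, beside 11.3% of all tested, and 0 were called. The 18 are those that passed the filter on low counts. With no filter 61 members had a fitted value. Of these, 51 were above 0 with a median of 1.75 (edgeR), or 50 with a median of 0.63 (limma). The medians of all miRNAs in these fits were 0.04 and 0.19. The 61 include members at 0 in all 6 libraries, whose values rest on no UMI of either group. In a fit of only the 6 libraries 8 of 9 were above 0. miR-127-3p had a log2 fold change of 2.76 (SE 1.17) and miR-434-3p of 2.51 (SE 0.90). miR-369-5p had 0 UMIs in every control library and 1, 3 and 34 UMIs in the hNSCs libraries, at least 6.89-fold higher against a floor of 3 UMIs over the control group.

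This list depended on 1 library. Its UMIs were 198, 81 and 84 in the control rats and 165, 449 and 2734 in the hNSCs rats, or 0.0176%, 0.0135% and 0.0111% against 0.0132%, 0.0382% and 0.146% of the known UMIs. hNSCs rat 1 lay within the range of the control rats. Without hNSCs rat 3 the median of the list was 0.91, beside 0.26 for all tested. In the RefSeq annotation Mir434 lay within 10 kb of Mir127, Mir136, Mir337, Mir431 and Mir433.

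Epithelial and liver miRNAs varied mostly between rats. In the list of the miR-200 family and other epithelial miRNAs, 7 of 7 were tested, 6 were above 0 and 2 were higher at an unadjusted p under 0.05, beside 11.3% of all tested. The median was 1.15, and without hNSCs rat 3 it was 0.48, beside 0.26 for all tested. miR-200b-3p was at 110, 121 and 103 CPM in the control rats and 74.1, 255 and 617 CPM in the hNSCs rats, so hNSCs rat 1 was the lowest of all. Of the 5 liver miRNAs, 0 were higher or lower at an unadjusted p under 0.05. The hepatocyte miRNA miR-122-5p was at 14086, 56689 and 23752 CPM in the control rats and 14834, 90716 and 72575 CPM in the hNSCs rats (log2 fold change 0.91, SE 0.75, adjusted p = 0.604, edgeR). In both groups the order of the rats by miR-122-5p was also their order by miR-1-3p, with rat 2 highest and rat 1 lowest. By miR-206-3p, miR-133a-3p and miR-133b-3p the order differed, with rat 3 the highest of the hNSCs group. A link between miR-122-5p and the myomiRs was not tested.

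Brain miRNAs went in both directions. Of 26 members 15 were tested, 4 were higher and 2 were lower at an unadjusted p under 0.05, and 0 were called, beside 11.3% and 1.29% of all tested. Their median of 0.54 became -0.14 without hNSCs rat 1 and -0.05 with predicted miRNAs kept, beside -0.23 and -0.02 for all tested (edgeR). With no filter the list median was 0.23 over 25 members with a fitted value, beside 0.04 for all miRNAs fitted (edgeR). Of the 26 members, 3 were at 0 in all 6 libraries, so some of those values rest on no UMI of either group. miR-9a-5p, a regulator of neural progenitors, was at 10.2, 35.2 and 20.9 CPM in the control rats and 36.2, 65.6 and 66.1 CPM in the hNSCs rats. The groups just failed to overlap, with a log2 fold change of 1.36 (SE 0.57, adjusted p = 0.311, edgeR). miR-218a-5p, a motor neuron miRNA, was at 17.7, 61.9 and 50.3 CPM against 36.2, 104 and 351 CPM. The neuronal miR-128-3p went the other way, at 14419, 3712 and 9786 CPM against 4054, 2256 and 4959 CPM. The neuron-specific miR-124-3p had under 1 CPM in each of the 6 libraries and was not tested, so this defining member of the list was near 0 while miR-128-3p was abundant.

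Blood cell lists did not separate the groups. Of the 8 red cell miRNAs 0 were higher or lower at an unadjusted p under 0.05, with a median log2 fold change of 0.36, and the platelet and leukocyte lists likewise had 0, with medians of -0.19 and -0.20. Without hNSCs rat 3 the leukocyte median was 0.15, beside 0.26 for all tested. The erythroid miR-451-5p was at 1027, 1864 and 2203 CPM in the control rats and 5110, 2921 and 653 CPM in the hNSCs rats, so the hNSCs group held both the highest and the lowest rat. The red cell list took 14.1%, 17.6% and 20.01% of known UMIs against 29.6%, 24.8% and 8.47%. As a measure of red cell RNA, log2 of miR-451-5p over miR-23a-3p differed by 0.28 between the group means (exact permutation p = 0.8, two-sided, n = 3 against 3, smallest possible 0.1). Hemoglobin mRNAs took 6.50%, 8.68% and 8.21% of annotated counts in the plasma mRNA libraries of the control rats and 12.9%, 11.9% and 5.83% in those of the hNSCs rats. hNSCs rats 2 and 3, which had the high myomiR levels, thus lay on opposite sides of the control rats in red cell RNA. A link between red cell RNA and myomiR levels was not tested.

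The let-7 family, which restrains growth and stem cell programmes in many tissues, took the largest mean share of the lists of miRNA families in both groups, although the miR-15 family took more in hNSCs rat 2 (23.3% against 22.8%). All 9 members had a log2 fold change below 0 with a median of -0.54, and 0 were lower at an unadjusted p under 0.05. All but 1 were below 0 without TMM, with predicted miRNAs kept or without hNSCs rat 2. The family took 52.7%, 28.3% and 37.3% of known UMIs in the control rats and 29.2%, 22.8% and 36.7% in the hNSCs rats, with overlap. let-7a-5p was at 158719, 67423 and 115104 CPM against 86161, 61492 and 86890 CPM, and control rat 1 stood highest. No member of the miR-30, miR-29, miR-15, miR-181 or miR-17 and miR-106b lists was higher or lower at an unadjusted p under 0.05, with list medians from -0.49 to 0.60. The most abundant miRNA, miR-16-5p, was at 128239, 137586 and 192958 CPM against 285143, 228569 and 64042 CPM, and hNSCs rat 3 was the lowest of all.

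**Figure D4:**
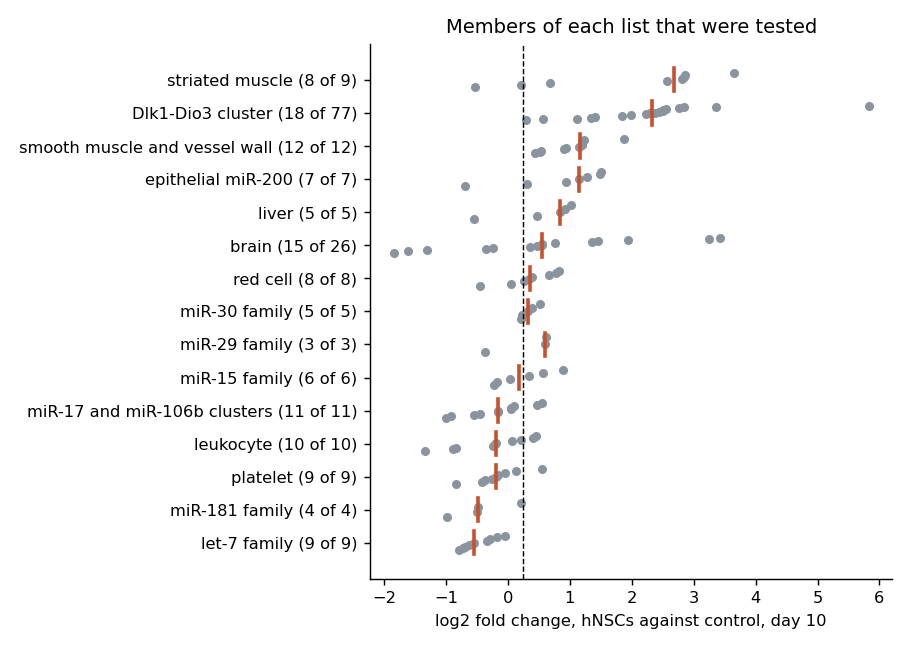
Log2 fold change of each tested member of 15 lists, hNSCs group against control group at day 10, with a bar at the median of each list, a dashed line at the median of all 309 tested miRNAs (0.24) and the number tested of all members in parentheses. The medians of the striated muscle and Dlk1-Dio3 lists, 2.68 and 2.33, lie furthest to the right, and that of the let-7 family, -0.54, furthest to the left.

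The plot of list members shows that in the main test the smooth muscle, Dlk1-Dio3 and miR-30 lists lay wholly above 0 and the let-7 list wholly below it. In some alternatives, such as no TMM for let-7, members of the smooth muscle, Dlk1-Dio3 and let-7 lists lay on the other side of 0. The shares of known UMIs overlapped between groups for every list. These lists partly share members and rats. The share of each list was compared by a two-sided exact permutation test (n = 3 against 3, smallest possible p 0.1). No list gave a p under 0.2 or a Benjamini-Hochberg adjusted p under 0.523 in that test.

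A list of 27 miRNAs that the study names, which does not hold every miRNA it names, had 21 tested members. None was called, and 2 of them, miR-9a-5p and miR-125b-2-3p, were higher at an unadjusted p under 0.05, beside 11.3% of all tested. The median over the 21 was 0.12, beside 0.24 for all tested. miR-125b-2-3p was at 20.5, 32.4 and 25.1 CPM in the control rats and 47.2, 60.6 and 57.6 CPM in the hNSCs rats, without overlap (log2 fold change 1.09, SE 0.43, adjusted p = 0.304, edgeR). miR-204-5p, a miRNA of choroid plexus and retina, was at 10.2, 32.4 and 11.2 CPM against 27.8, 42.9 and 75.5 CPM, where hNSCs rat 1 lay below control rat 2 (log2 fold change 1.46, SE 0.79, adjusted p = 0.412, edgeR). The injury-related miR-21-5p was at 16702, 28765 and 26416 CPM against 24268, 28322 and 22417 CPM. The inflammatory miR-155-5p was at 155, 213 and 285 CPM against 297, 182 and 71.9 CPM.

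The transplanted cells were human, and many miRNAs have the same sequence in both species. Of 162 known rat miRNAs whose sequence equals one that the study lists in EVs of cultured hNSCs, 138 were tested. They took 88.2% to 92.8% of the known UMIs of the 6 libraries. Of the 138, 1 was called (miR-1b), 14 were higher and 2 were lower at an unadjusted p under 0.05, beside 11.3% and 1.29% of all tested, and the median log2 fold change was 0.14 beside 0.24 for all tested. For these miRNAs, human and rat copies cannot be told apart in the counts.

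The same model gave the values of the other plasma groups, all fitted together from 7 groups of 3 rats. In healthy rats, which had no stroke, miR-206-3p was at 204, 286 and 313 CPM, a range that overlapped that of the control rats at day 10. No miRNA was called between the control group at day 10 and the healthy group by edgeR, with 9 higher (2.91%) and 14 lower (4.53%) at an unadjusted p under 0.05. At day 4 miR-206-3p was at 282, 276 and 645 CPM in the control group and 217, 286 and 543 CPM in the hNSCs group. At day 31 it was at 2112, 2133 and 155 CPM in the control group and 1121, 934 and 764 CPM in the hNSCs group. Control rats 1 and 2 at day 31 thus lay below hNSCs rats 2 and 3 at day 10 and above all other rats. No miRNA was called between the hNSCs and control groups at day 4 or day 31 by edgeR, with 10 higher (3.24%) and 4 lower (1.29%) at day 4 and 13 higher (4.21%) and 22 lower (7.12%) at day 31 at an unadjusted p under 0.05.

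Whether the effect of hNSCs at day 10 differed from that on the other days was tested as an interaction in the same model, so these contrasts share the day 10 libraries with the comparison above. Against day 31 the day 10 effect was more positive for 11 miRNAs (3.56%) and more negative for 1 (0.324%). They included miR-206-3p, miR-133a-3p, miR-133b-3p and miR-145-5p, of which miR-133a-3p differed most, by 4.70 on the log2 scale (SE 1.10, adjusted p = 0.0426, edgeR). At day 31 the control rats were at 2769, 2300 and 236 CPM of miR-133a-3p and the hNSCs rats were at 647, 420 and 360 CPM, so control rats 1 and 2 were the high ones. Against day 4 the effect was more negative for 1 miRNA, miR-488-3p (0.324%), and more positive for 0 (edgeR; 6 by DESeq2). At an unadjusted p under 0.05, 40 were more positive (12.9%) and 19 more negative (6.15%) against day 4, and 55 (17.8%) and 22 (7.12%) against day 31. The counts against day 31 depended on single rats: 11 became 0 without control rat 1, control rat 3, hNSCs rat 2 or hNSCs rat 3 of day 10, and 17 and 16 without control rat 2 and hNSCs rat 1. No rat of day 31 was left out, so dependence on control rats 1 and 2 of that day was not tested.

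**Figure D5:**
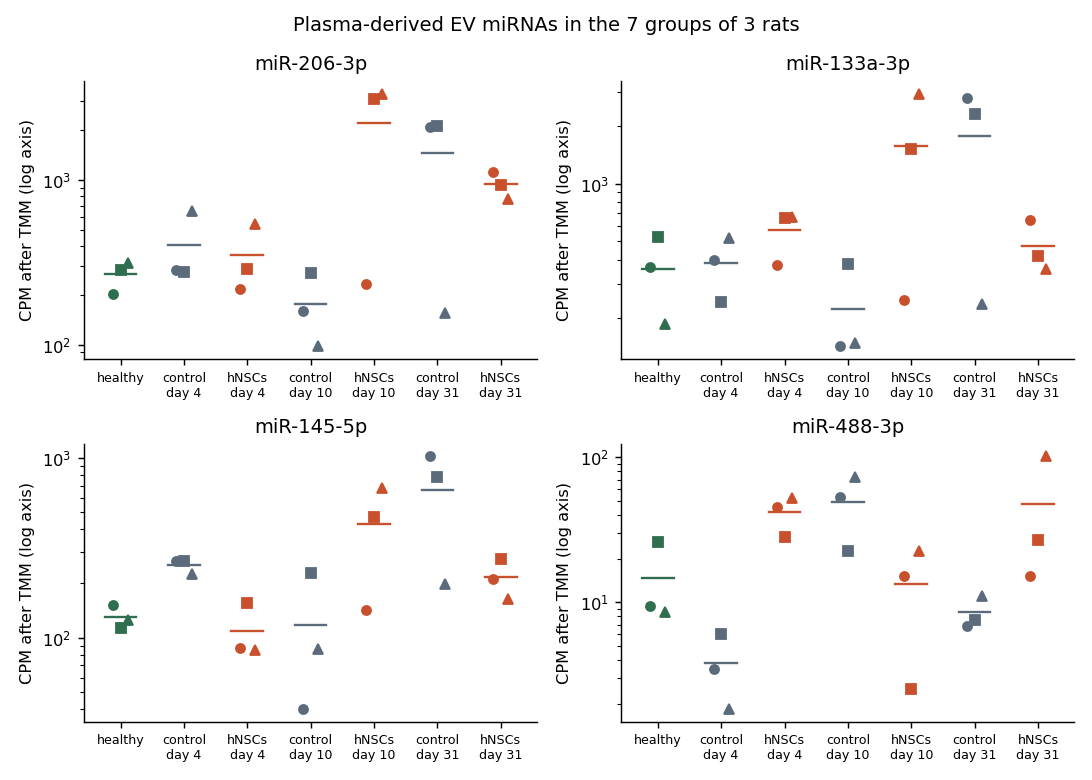
Level of miR-206-3p, miR-133a-3p, miR-145-5p and miR-488-3p in plasma-derived EVs of each rat of the 7 groups, in CPM on a log axis, with a line at the mean of each group of 3 and the marker shapes for rats 1 (circle), 2 (square) and 3 (triangle) of each group. For the first 3 miRNAs, hNSCs rats 2 and 3 at day 10 and control rats 1 and 2 at day 31 are the highest, and miR-488-3p is higher in hNSCs than control rats at days 4 and 31 and lower at day 10.

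Each miRNA that differed between days in this test had fitted effects of opposite sign on the days compared. At day 4 miR-488-3p was at 3.46, 6.09 and 1.83 CPM in the control group and 45.6, 28.4 and 52.0 CPM in the hNSCs group, and at day 31 at 6.83, 7.60 and 11.1 CPM against 15.2, 26.9 and 102 CPM. Neither of these differences was called on its own, and both were without overlap. The day 10 effect minus the day 4 effect was -5.41 (SE 1.12, adjusted p = 0.0353, edgeR).

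In brain-derived EVs of the same 6 rats the myomiRs did not show the plasma pattern. miR-206-3p was at 168, 73.5 and 119 CPM in the control rats and 117, 86.5 and 124 CPM in the hNSCs rats, with a log2 fold change of -0.16 (SE 0.32), and that of miR-1-3p was 0.10 (SE 0.27). Of 350 miRNAs tested in brain-derived EVs 0 were called by edgeR, with 7 higher (2%) and 9 lower (2.57%) at an unadjusted p under 0.05. The difference between plasma and brain was not tested.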

How the data were processed

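Small RNA of plasma-derived EVs was sequenced with a kit that tags molecules with UMIs. Blood fractions are named plasma in the sample labels and serum in their extraction text. The authors removed reads of other RNA classes with Bowtie, matched the rest to miRBase and to predicted hairpins, and deposited UMI counts per miRNA, which were used here, together with mature sequences. The authors also deposited TPM per miRNA, which was used for limma and is each count over the library total, per 1000000. The plasma mRNA values are counts that the authors deposited per gene.

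Known miRNAs of all 21 plasma libraries (7 groups) were fitted with edgeR 4.0.16 in R 4.3.3 (filterByExpr, TMM, glmQLFit, glmQLFTest). Benjamini-Hochberg adjustment ran over the 309 tested, and a miRNA was called at an adjusted p under 0.05 and over 1.5-fold. SE is the log2 fold change divided by the root of its F value. The study used limma on normalised values, so limma 3.58.1 (log2 of TPM plus 1 or 0.1, with and without a mean TPM over 5) and DESeq2 1.42.0 were alternatives. The script was tested on simulated counts.

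The labels name the rats as biological replicates, 3 per group. Replicate numbers name different rats, so the groups are unpaired. Intervals cover counting error at 95% confidence. The miRNAs named were those called, then those with the smallest unadjusted p until 10 were higher and 10 lower, the 5 most abundant, list members by mean CPM and 27 that the study names. Further members were named after their values were seen. The lists and members were chosen with earlier results of these data known. Pairs of miRNAs were near-identical at up to 4 base differences with counts within a ratio of 0.8 (21 pairs).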

Additional observations from a re-analysis of the deposited data

Results flagged for a closer look

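The effect of hNSCs (hNSCs group against control group, log2 scale) differed between days by a test of the difference itself for 12 miRNAs, given here as values. Between day 10 and day 4 it differed for miR-488-3p, by -5.41 (SE 1.12, adjusted p = 0.0353, edgeR). Between day 10 and day 31 it differed for miR-488-3p by -4.35, and for 11 miRNAs that were more positive at day 10, with adjusted p from 0.0426 to 0.0460 (edgeR).

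Of these, the myomiRs miR-133a-3p, miR-133b-3p and miR-206-3p differed by 4.70, 3.68 and 4.30. The smooth muscle list members miR-145-5p, miR-10a-5p, miR-10b-5p, miR-100-5p and miR-99a-5p differed by 3.49, 2.33, 2.33, 2.71 and 2.73. miR-365-3p differed by 3.35, and at day 10 every hNSCs rat (81.7, 85.8 and 157 CPM) lay above every control rat (25.1, 64.8 and 25.1 CPM). miR-434-3p and miR-129-5p differed by 4.54 and 4.37, and miR-129-5p rested on 1 and 24 UMIs in the control and hNSCs libraries at day 10. miR-10a-5p and miR-10b-5p, and miR-100-5p and miR-99a-5p, are near-identical pairs with nearly the same counts. In this set, control rats 1 and 2 at day 31 were above the hNSCs rats of that day for each of the 11 miRNAs. Without control rat 1, control rat 3, hNSCs rat 2 or hNSCs rat 3 of day 10, 0 miRNAs were more positive at day 10 than at day 31 past the threshold. No rat of day 31 was left out.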

How the results depend on the processing

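The 3 miRNAs called higher at day 10 became 5 with DESeq2 and 5 with no filter on low counts, and 35 at an unadjusted p. They became 0 with limma (each of the 3 versions), DESeq2 size factors, library totals without TMM, only the 6 libraries, predicted miRNAs kept, the red cell list left out and robust dispersions. The same count was 0 under 3 alternatives chosen after seeing the data (near-identical miRNAs counted once, thinning, striated muscle list left out). Leaving out 1 rat of day 10 gave 0 to 5. Called lower were 0, or 4 at an unadjusted p. The log2 fold changes of miR-206-3p, miR-1-3p, miR-133a-3p and miR-133b-3p kept their direction in each setting run. The cause of lost calls was not tested.

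For day 10 minus day 4, 0 higher became 6 with DESeq2, 2 with no filter and 0 to 2 without 1 rat, and 1 lower became 5 with DESeq2, 0 thinned and 0 to 1 without 1 rat. For day 10 minus day 31, 11 higher became 26 with DESeq2, 28 with no filter, 4 with near-identical miRNAs counted once, 0 without TMM, 0 thinned and 0 to 17 without 1 rat of day 10. There, 1 lower became 8 with DESeq2, 8 with no filter, 0 without TMM, 0 thinned and 0 to 5 without 1 rat.

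Deviations of same-numbered rats of the groups correlated at 0.111, 0.326 and -0.257, and those of different-numbered rats at -0.317 to 0.311. So few values cannot decide whether same-numbered rats shared more than a number. With the replicate number as a block, over 18 or 6 libraries, 0 were called higher, and the day 10 minus day 31 counts were 0 and 0.

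No list's shares were without overlap, against 1 list on the scale of TMM CPM and 0 to 9 lists without 1 rat. The red cell index (0.28) turned to -0.022 with miR-16-5p and ranged from -0.39 to 1.18 without 1 rat. Uncalled miRNAs changed sign: miR-16-5p to -0.080 and -0.084 under the blocks, -0.73 with predicted miRNAs kept and -0.41 to 0.72 without 1 rat, miR-451-5p to -0.59 with predicted miRNAs kept and -0.23 to 1.23 without 1 rat, and miR-208a-3p ranged from -1.07 to 0.062 without 1 rat.

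With 3 rats per group and a range of over 10-fold for miR-206-3p within the hNSCs group, changes confined to some rats are measured with wide errors. miRNAs with few UMIs, such as miR-137-3p, are limited by depth.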
